A study of Mus musculus with 8 samples.

Results

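The small proline-rich (Sprr) genes were compared between keratinocytes that lack Nfkbiz and wild-type keratinocytes, all carrying the v-rasHa oncogene. The members were chosen by symbol: a probe set belonged to the family where the platform annotation gave it exactly 1 symbol and that symbol starts with Sprr. This rule found 9 of the 9294 genes in the table, each with 1 probe set: Sprr2d, Sprr2f, Sprr2h, Sprr2i, Sprr2j-ps and Sprr2k of the Sprr2 subgroup, and Sprr1a, Sprr1b and Sprr3. Sprr2a1, Sprr2a2, Sprr2a3, Sprr2b, Sprr2c-ps, Sprr2e, Sprr2g and Sprr4 were not analysed here. The first group held 4 arrays of wildtype keratinocytes (WT RAS) and the second 4 arrays of Nfkbiz KO keratinocytes (KO RAS). Both groups were of the C57BL/6 strain, were grown in regular medium without starvation, and were transduced with v-rasHa for 3 days, so the controls carry the oncogene too. The labels number the arrays of each group as biological replicates 1 to 4. They do not state the age or number of the mice, how the Nfkbiz allele was made or in which cells it is lost, and no culture without v-rasHa was measured. The v-rasHa oncogene is an activated viral form of Hras, and Nfkbiz encodes IkBz, a nuclear protein that binds NF-kB subunits and is needed for a subset of their target genes.

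Small proline-rich proteins are precursors of the cornified envelope, the crosslinked protein shell that replaces the plasma membrane of a terminally differentiated keratinocyte. Transglutaminases join the glutamine and lysine residues at their ends, so that the short, proline-rich repeats between them bridge larger envelope proteins such as loricrin. The genes lie side by side in the epidermal differentiation complex, and stressed, wounded or inflamed epithelium is known to raise several of them.

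The start regions of 4 members are shown because they span the range of the changes: Sprr2d and Sprr2f fell the most in the knockout, Sprr2k fell the least among the Sprr2 genes, and Sprr1a had the smallest difference of the 9. Each runs 5′ to 3′ from 250 bases before to 50 bases after the gene start in the RefSeq annotation of GRCm38.p6, and capitals mark matches to AP-1 (TGANTCA), to the octamer (ATGCAAAT, read here on the opposite strand as ATTTGCAT) and to the TATA box (TATAAA).
Sprr2d (chr3:92338890-92339189, plus strand): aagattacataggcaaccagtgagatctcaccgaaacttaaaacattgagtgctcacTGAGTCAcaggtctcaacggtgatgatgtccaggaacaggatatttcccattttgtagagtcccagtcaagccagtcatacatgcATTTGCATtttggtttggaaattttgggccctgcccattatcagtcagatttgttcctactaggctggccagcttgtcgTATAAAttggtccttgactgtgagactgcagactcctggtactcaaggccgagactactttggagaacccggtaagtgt
Sprr2f (chr3:92364937-92365236, plus strand): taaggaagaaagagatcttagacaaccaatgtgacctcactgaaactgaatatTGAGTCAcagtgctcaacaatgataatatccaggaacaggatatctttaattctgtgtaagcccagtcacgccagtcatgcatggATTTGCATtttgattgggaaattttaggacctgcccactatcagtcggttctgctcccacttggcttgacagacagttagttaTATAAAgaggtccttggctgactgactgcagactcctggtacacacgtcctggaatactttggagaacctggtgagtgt
Sprr2k (chr3:92432332-92432631, plus strand): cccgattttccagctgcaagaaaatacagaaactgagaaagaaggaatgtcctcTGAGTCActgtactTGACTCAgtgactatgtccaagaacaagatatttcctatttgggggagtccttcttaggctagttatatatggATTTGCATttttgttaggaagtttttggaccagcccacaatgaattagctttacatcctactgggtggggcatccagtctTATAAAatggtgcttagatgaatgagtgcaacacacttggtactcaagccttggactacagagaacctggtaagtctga
Sprr1a (chr3:92485832-92486131, minus strand): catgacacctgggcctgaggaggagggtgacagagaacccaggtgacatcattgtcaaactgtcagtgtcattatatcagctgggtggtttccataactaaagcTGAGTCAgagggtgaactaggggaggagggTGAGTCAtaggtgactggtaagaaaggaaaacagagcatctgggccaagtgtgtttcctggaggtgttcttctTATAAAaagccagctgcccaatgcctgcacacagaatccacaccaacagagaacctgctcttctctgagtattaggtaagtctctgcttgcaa

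Of the 9 members, 8 had such a region, the exception being the pseudogene Sprr2j-ps. All 5 Sprr2 start regions held an AP-1 match, with its first base between -198 and -193 from the gene start in each, and an octamer match with its first base between -112 and -108. The octamer was in none of the 3 regions of Sprr1a, Sprr1b and Sprr3, and 1.74% of 32851 mouse promoters of the same length held it. AP-1 matches were also in Sprr1a and Sprr1b, nearer to the start, and in 7.81% of all promoters. The TATA box was in all 8 regions and in 13.6% of all promoters. In a global alignment, the Sprr2 regions shared 61.9% to 81.8% of aligned columns with each other, and 48.7% to 54% with those of Sprr1a, Sprr1b and Sprr3. Sprr2k, which fell little, carried AP-1, octamer and TATA matches as Sprr2d and Sprr2f did, and a second AP-1 match at -182. Sprr2h and Sprr2k were the most alike pair at 81.8%, while Sprr2d shared 78.2% with Sprr2i and 73.2% with Sprr2f. Of the other motifs, all searched on both strands, 3 matched in 1 of the 8 regions each: C/EBP (TTGCNNAA) and STAT (TTCNNNGAA) matched in Sprr2i alone, and the interferon element ISRE (GAAANNGAA) in Sprr2f alone, and they matched in 10.8%, 8.3% and 8.56% of all promoters. Neither the ETS motif (CNGGAAG, in 31.9% of all promoters) nor the NF-kB motif (in 5.8%) matched in the 8 regions, and no match overlapped a match to another motif. A match is a run of letters and not a measured binding site.

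**Figure D1:**
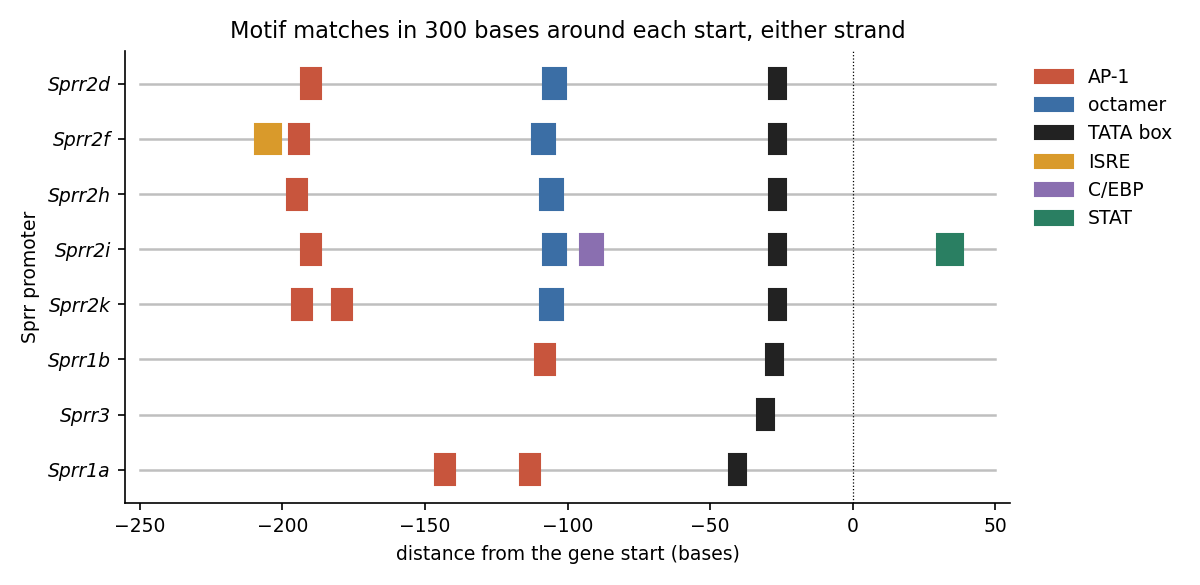
Matches to 6 motifs in the start regions of the 8 Sprr genes that have one, against distance from the gene start in bases, with one row per gene in genome order and boxes to scale. The octamer lies near -108 in each of the 5 Sprr2 genes and is absent from the rows of Sprr1b, Sprr3 and Sprr1a.

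Transcripts of the Sprr2 subgroup were lower in the knockout keratinocytes, by unequal amounts, while Sprr1a, Sprr1b and Sprr3 did not pass the test. Sprr2f and Sprr2d fell to 16.2% and 18.8% of their wild-type signal, Sprr2i to 41.8%, Sprr2j-ps to 51.4%, Sprr2h to 68.1% and Sprr2k to 82.5%. In limma with Benjamini-Hochberg adjustment over all 9294 genes, 6 of the 9 members passed an adjusted p of 0.05 as lower, against 4.43% of all genes called lower, 4.47% called higher and 8.9% called in either direction. None was higher by limma, at an adjusted or an unadjusted p under 0.05, and 8 were lower at the latter. The shares of all genes above are for the adjusted p, and the share at an unadjusted p under 0.05 was not counted. Centring every array on its median gave 314 lower and 482 higher calls over all genes in place of 412 and 415. All 9 members had a negative log2 fold change, with a median of -0.55 for the family, -1.11 for the Sprr2 genes and -0.20 for Sprr1a, Sprr1b and Sprr3, beside -0.01 for all genes. The knockout values lay below all wild-type values for 7 of the 9 members, against 7.97% of all genes. The table holds log2 signals, with 1 value for each probe set and array, and a log2 fold change is the knockout mean minus the wild-type mean. Bulk RNA cannot tell fewer cells that make a transcript from less transcript in each cell.

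**Figure D2:**
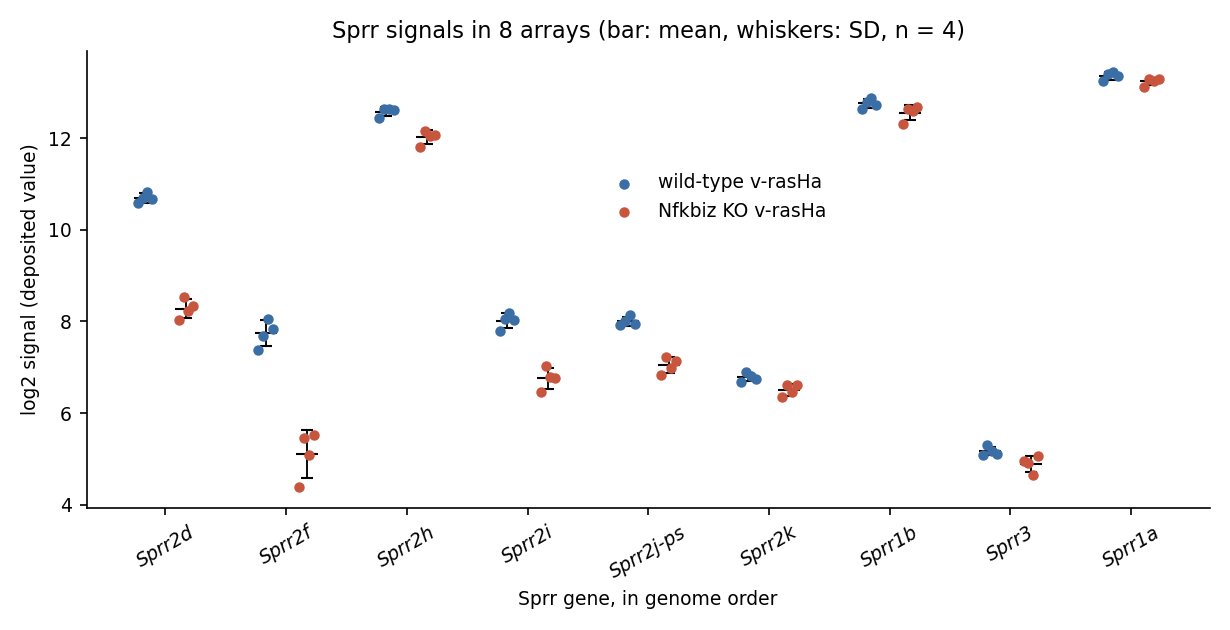
Deposited log2 signals of the 9 Sprr genes in the 4 wild-type and 4 knockout arrays, with each array as a point and the mean and SD of each group as black bars. The groups are separated by more than 1.8 for Sprr2d and Sprr2f and overlap for Sprr1b and Sprr1a, and heights of different genes are not comparable.

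Sprr2d encodes one of the short Sprr2 envelope precursors. Its log2 signal was 10.58, 10.70, 10.83 and 10.68 in wild-type replicates 1 to 4 and 8.03, 8.54, 8.23 and 8.33 in knockout replicates 1 to 4. Every knockout array was thus far below every wild-type array, with 2.04 between the nearest values of the groups. The means were 10.70 ± 0.10 and 8.28 ± 0.21 (SD, n = 4 per group), and the log2 fold change was -2.41 ± 0.10 (SE; 95% interval -2.63 to -2.20; limma adjusted p = 1.09e-07), a 5.33-fold lower signal.

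Sprr2f, a close relative of Sprr2d, had log2 signals of 7.38, 7.68, 8.06 and 7.84 in wild-type arrays and 4.38, 5.45, 5.09 and 5.52 in knockout arrays. The groups were separated by 1.86, and this was the member that varied most within both groups. The log2 fold change was -2.63 ± 0.23 (SE; limma adjusted p = 2.50e-05), a 6.19-fold lower signal and the 3rd most negative of all genes, with Sprr2d in place 4. Knockout replicate 1, at 4.38, lay below the array medians of 4.49 to 4.57. No detection calls were used, so this value could not be told from background, and the fold describes signals only. Without that array the log2 fold change of Sprr2f was -2.39.

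Sprr2i and Sprr2j-ps changed by intermediate amounts. Sprr2i, another protein-coding member, had wild-type values of 7.80, 8.04, 8.19 and 8.04 and knockout values of 6.45, 7.02, 6.79 and 6.77, with no overlap and a gap of 0.78. Its log2 fold change was -1.26 ± 0.12 (SE; limma adjusted p = 4.24e-05), a 2.39-fold lower signal. Sprr2j-ps is a transcribed pseudogene in the reference and has no known protein. Its values were 7.92, 8.00, 8.15 and 7.95 in wild-type arrays and 6.82, 7.24, 6.98 and 7.14 in knockout arrays, again without overlap. It fell by 0.96 ± 0.09 on the log2 scale (SE; limma adjusted p = 4.52e-05). Sprr2d, Sprr2f and Sprr2i were the 3 members that fell by at least 2-fold, where 0.366% of all genes did so with a call.

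Sprr2h and Sprr2k fell by less. Sprr2h had wild-type values of 12.43, 12.64, 12.63 and 12.61 and knockout values of 11.80, 12.16, 12.06 and 12.07. The groups were apart by 0.27, and the log2 fold change was -0.55 ± 0.08 (SE; limma adjusted p = 0.00117). Its probe set is the only one of the family whose suffix, _s_at, marks a design that can bind several transcripts, so this value may mix Sprr2 genes. The signals of Sprr2h were also high in the table, near those of Sprr1b, and whether the array still resolved differences there was not tested. Sprr2k had wild-type values of 6.69, 6.90, 6.82 and 6.75 and knockout values of 6.35, 6.62, 6.46 and 6.62. Only 0.07 separated its groups, and the log2 fold change was -0.28 ± 0.07 (SE; limma adjusted p = 0.0419). The call of Sprr2k was lost with arrays centred on their medians (adjusted p = 0.0653) and in 5 of the 8 fits that left out 1 array, namely wild-type replicate 2, 3 or 4 or knockout replicate 1 or 3, with log2 fold changes between -0.29 and -0.22 there and limma adjusted p up to 0.115. The Sprr2 genes are closely related copies, so the probe sets of single members may share targets.

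Sprr1b and Sprr1a, envelope precursors that keratinocytes make in quantity when stressed, differed little. Sprr1b had 12.64, 12.80, 12.87 and 12.73 in wild-type arrays and 12.32, 12.64, 12.58 and 12.69 in knockout arrays. The groups overlapped, with knockout replicate 1 below the rest, and the log2 fold change was -0.20 ± 0.08 (SE; limma adjusted p = 0.195). Sprr1a had 13.25, 13.40, 13.45 and 13.35 in wild-type arrays and 13.12, 13.30, 13.25 and 13.29 in knockout arrays, which also overlap. Its log2 fold change was -0.12 ± 0.06 (SE; limma adjusted p = 0.301), with an interval of -0.26 to 0.01. These values lie near the top of the table, whose highest value was 13.86, and whether the array still resolved differences there was not tested. Both passed with an intensity trend in the variance model, at limma adjusted p = 0.0267 for Sprr1b and 0.0476 for Sprr1a.

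Sprr3, best known from the oesophagus and other internal stratified epithelia, had low signals of 5.09, 5.30, 5.17 and 5.11 in wild-type arrays and 4.96, 4.90, 4.65 and 5.06 in knockout arrays. All knockout values were lower, but by 0.04 at the nearest, and they lay close to the array medians. The log2 fold change was -0.28 ± 0.09 (SE; limma adjusted p = 0.0761). The call depended on the setting: Sprr3 passed once genes with a mean log2 signal below 5 were removed (adjusted p = 0.0316) and without knockout replicate 4 (limma adjusted p = 0.0454). An exact two-sided permutation test over the 8 arrays, unadjusted, gave 0.0286 for Sprr3 and for each of the 6 Sprr2 genes, which is the smallest p that 4 against 4 allows, and 0.0571 for Sprr1b and 0.0857 for Sprr1a.

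**Figure D3:**
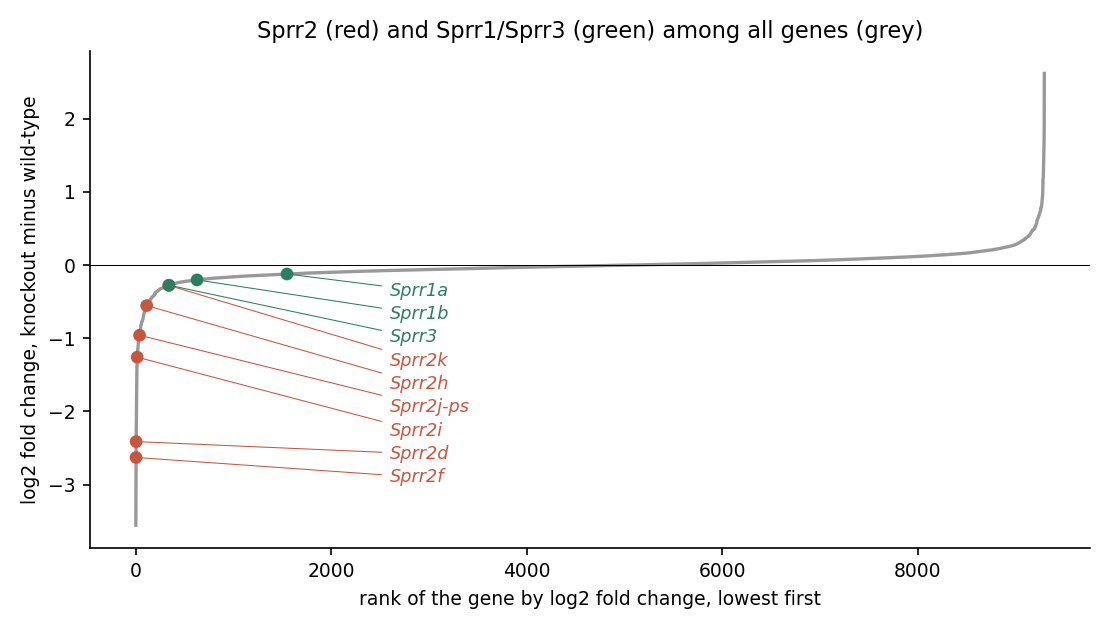
Log2 fold changes of all 9294 genes, knockout minus wild-type, in order of rank from the most negative, with the 6 Sprr2 genes in red and Sprr1a, Sprr1b and Sprr3 in green. Sprr2f and Sprr2d stand at ranks 3 and 4, Sprr2i at 15, Sprr2j-ps at 39 and Sprr2h at 112, while Sprr1a stands at 1547, and the point of Sprr3 covers that of Sprr2k.

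Whether the members changed by different amounts was tested on the difference of their log2 values within each array, which a shift of a whole array cannot move. All 36 pairs of members were compared by exact two-sided permutation tests over the 8 arrays, and 29 passed a Benjamini-Hochberg adjusted p of 0.05, each at 0.0355, the smallest value reached. Before adjustment each of the 29 had a permutation p of 0.0286, the smallest that 4 against 4 allows. The adjusted value thus depends on how many pairs reach that floor, and it does not grade the pairs, which share genes. Sprr2d fell by more than Sprr1a in this test, with a difference of changes of -2.29 (-2.36 to -2.25 with single arrays left out), and by more than its near copy Sprr2i, with -1.15. Sprr2d and Sprr2f were not told apart: their changes differed by 0.22 (exact permutation, adjusted p = 0.393), and by 0.06 to 0.34 with single arrays left out. Between the Sprr2 genes on one side and Sprr1a, Sprr1b and Sprr3 on the other, 15 of 18 pairs passed. The 3 that did not were Sprr2h with Sprr3, where the difference was -0.28 (exact permutation, adjusted p = 0.103), Sprr2k with Sprr1b at -0.07 and Sprr2k with Sprr3 at 0.00 (exact permutation, adjusted p = 0.193 and 1). The change of Sprr2k differed from that of Sprr1a by -0.16, and that of Sprr2h from that of Sprr2k by -0.28 (adjusted p = 0.0355 in both exact tests). A different probe design can respond to the same change with a different slope, and that was not tested.

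Replicate 1 was low in both groups for most members, Sprr3 being an exception. Among wild-type arrays, replicate 1 had the lowest value of all 9 members, and replicate 3 the highest of 6. Among knockout arrays, replicate 1 had the lowest value of 8 members, and Sprr3 was lowest in replicate 3. The median deviation of the 9 members from their group mean was -0.12 in wild-type replicate 1 and -0.22 in knockout replicate 1, whereas that of all genes was 0.00 in both arrays. Other genes of the cornified envelope shared this order. Replicate 1 was lowest in both groups for 8 of the 9 members, for 15 of the 22 measured envelope partners and crosslinking enzymes, Tgm1, Csta1 and Cnfn among them, and for 16 of the 31 other measured genes of the epidermal differentiation complex, among them Lce3a, Lce3b, Lce3c and Lce3f, against 7.3% of all genes. It was so for 4 of the 16 measured keratinocyte transcription factors and 1 of the 7 leukocyte markers. None of the 7 keratinocyte, 6 fibroblast and 3 melanocyte markers had this order, but these lists are too short to compare with the share of all genes. With both of these arrays removed, which was decided on after seeing the data, the log2 fold change was -2.37 for Sprr2d and -2.51 for Sprr2f. In that fit 5 members passed as lower and Sprr2k did not (-0.26; limma adjusted p = 0.0851).

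**Figure D4:**
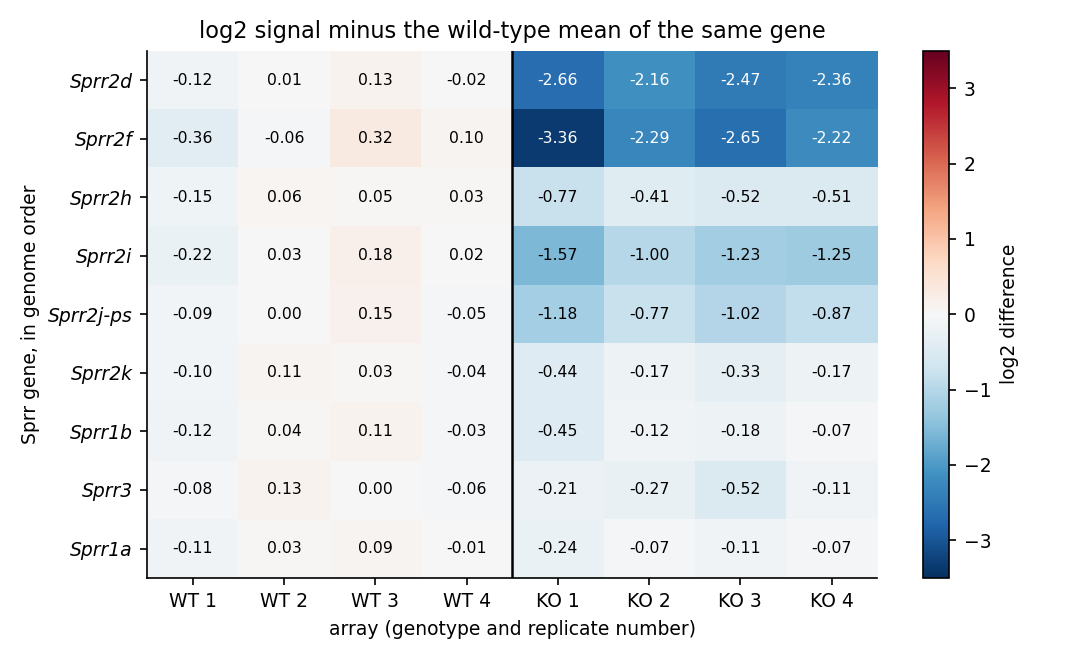
Log2 signal of each Sprr gene in each array minus the wild-type mean of that gene, with genes in genome order as rows and arrays as columns. Knockout replicate 1 is the lowest knockout array for every gene but Sprr3, at -3.36 for Sprr2f and -2.66 for Sprr2d, and the column of wild-type replicate 1 is negative throughout.

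In genome order on chromosome 3, the measured members follow each other as Sprr2d, Sprr2f, Sprr2h, Sprr2i, Sprr2j-ps, Sprr2k, Sprr1b, Sprr3 and Sprr1a, per the GRCm38.p6 gene table. The most negative changes were at the Sprr2d end and the least negative at the Sprr1a end, but Sprr2h in between fell by less than Sprr2i and Sprr2j-ps (differences of 0.71 and 0.41, exact permutation adjusted p = 0.0355). The nearest measured gene before the cluster, Lelp1, had a log2 fold change of -0.10 (limma adjusted p = 0.522), and the nearest after it, Smcp, had 0.10 (limma adjusted p = 0.507). The means of Lelp1 lay close to the array medians and those of Smcp below them. Of the 22 measured genes from Smcp to S100a10, 8 fell by limma and none rose, beside 4.43% and 4.47% of all genes, and their median was -0.17. At an unadjusted limma p under 0.05 the counts were 9 and 0, and the share of all genes at that threshold was not counted. The 8 include close copies, some read by probe sets that can bind other transcripts, so they may not be separate signals.

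**Figure D5:**
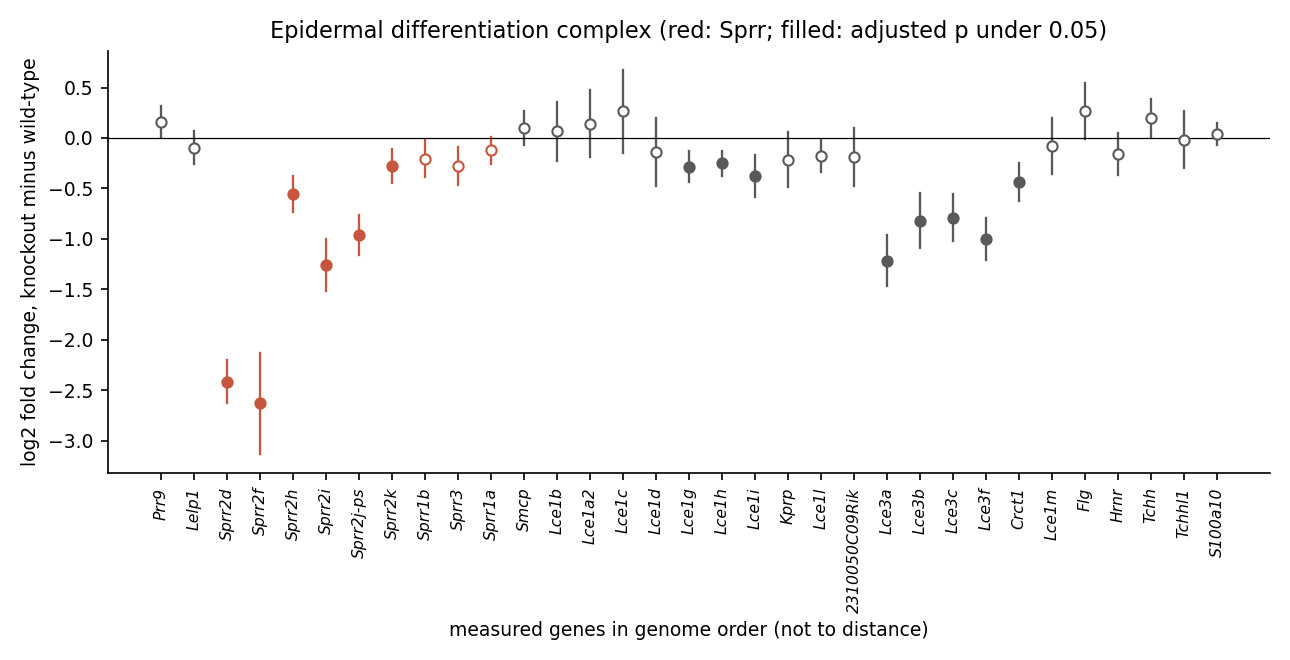
Log2 fold changes with 95% limma intervals for the Sprr genes (red) and the measured genes on either side in the epidermal differentiation complex (grey), in genome order and not to distance, with filled points at adjusted p under 0.05. Sprr2d and Sprr2f lie below -2.4, the genes beside the cluster lie near 0, and a second group of lower points are the Lce3 genes.

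Other genes of the epidermal differentiation complex moved in both directions. Of 31 measured members of a list of 53, limma called 10 lower and 3 higher and left 18 uncalled, and the median change was -0.10. The shares over all genes were 4.43% lower and 4.47% higher. With an intensity trend the count of higher genes in the list was 5, in a fit that called 1124 genes in all in place of 827. The late cornified envelope genes Lce3a, Lce3f, Lce3b and Lce3c fell, with log2 fold changes of -1.21, -0.999, -0.82 and -0.79, and so did the calprotectin genes S100a8 (-1.03) and S100a9 (-0.85). The probe sets of Lce3b and Lce3c have the suffix _x_at, which marks a design that can bind other transcripts, so these values may mix Lce genes. Flg, which encodes filaggrin, had 0.27 ± 0.13 (SE; limma adjusted p = 0.252). The most negative change of the list, that of Lce3a, was thus close to the -1.26 of Sprr2i, and a difference between these genes was not tested.

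Partners of the Sprr proteins in the envelope, and the enzymes that join them, included more genes that fell than rose. Of 22 measured members of a list of 30, 9 fell, 1 rose and 12 were not called by limma, beside 4.43% and 4.47% of all genes called lower and higher, and the median was -0.27. Tgm1, the transglutaminase that crosslinks Sprr proteins in keratinocytes, fell from 8.66 ± 0.06 to 7.93 ± 0.14 (SD, n = 4 per group; log2 fold change -0.73). Csta1, a cystatin A gene (-1.02), Cnfn, the cornifelin gene (-0.80), the lipoxygenase gene Alox12b (-0.78) and the protease inhibitor gene Spink5 (-0.50) also fell. Padi1, a peptidylarginine deiminase gene, rose by 0.49 with overlapping groups, and its call was lost in 6 of the 8 fits that left out 1 array, namely wild-type replicate 1, 3 or 4 or knockout replicate 2, 3 or 4. Krt1 and Krt10, keratins of the spinous layer, had 0.00 and 0.12 and did not pass. The count of members that fell was 14 once genes with a mean log2 signal below 5 were removed and 15 with an intensity trend. Those fits also called more genes in all, 1055 and 1124 in place of 827, the first over fewer genes.

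Among transcription factors of keratinocytes, 16 of a list of 41 were measured, of which limma called 6 lower and 3 higher, where 4.43% and 4.47% of all genes were so called, and the median was -0.14. Prdm1, which encodes the transcriptional repressor Blimp1 that acts in terminal keratinocyte differentiation, fell by 0.68. Fos, a part of AP-1, fell by 0.54. The grainyhead-like genes Grhl1 and Grhl3, regulators of the skin barrier, fell with log2 fold changes of -0.50 and -0.45. Relb, an NF-kB subunit, rose by 0.64 and the stress factor gene Atf3 by 0.66. Elf3, an epithelial ETS factor, had -0.17 ± 0.05 (SE; limma adjusted p = 0.0521), and Nfe2l2, which encodes NRF2, had -0.07 and did not pass. No binding was measured, and a link between these transcripts and the Sprr genes was not tested.

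The genes whose profiles over the 8 arrays were nearest to Sprr2d, by Euclidean distance between values centred on each gene's mean, were Cbr2 (0.58), Tmem45a (0.68) and Csf3 (0.72). Cbr2, a carbonyl reductase gene, had a log2 fold change of -2.22, Tmem45a, a transmembrane protein gene, had -1.95, and the cytokine gene Csf3 had -2.27. Sprr2f came in place 4 at 0.75. Sprr2d was in turn the nearest profile to Sprr2f, followed by Tmem45a (1.21) and Cbr2 (1.27). These distances are set mostly by the size of the difference between genotypes and are given as a description.

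Cell type markers were read in the same arrays, where limma called 4.43% of all genes lower and 4.47% higher. The marker lists are short, so single calls in them cannot be set against these shares. The cultures had keratinocyte markers at high signals, with Krt5 at 13.42 and 13.29 and Perp at 12.76 and 12.72 in wild-type and knockout means. Of 7 measured keratinocyte markers, limma called only Col17a1 lower, and their summed linear signal was 28265 to 29263 in the wild-type group and 26852 to 28468 in the knockout group. Of 6 measured fibroblast markers, 5 fell and 1 rose, with summed signals of 760 to 825 and 491 to 566, which do not overlap. Twist2 and Dcn, the most abundant by wild-type mean, fell with log2 fold changes of -1.02 and -0.97. Postn, the periostin gene, rose by 1.47 (2.76-fold; limma adjusted p = 2.12e-06), the change of greatest size in this list. Of 3 melanocyte markers, Pmel fell by 0.28 and the other two, among them Dct at -0.18, did not pass, with summed signals of 2816 to 2947 and 2183 to 2689. None of 7 leukocyte markers passed by limma, and 2 were lower at an unadjusted p under 0.05, a threshold at which all genes were not counted. Their summed signals were 221 to 254 and 209 to 225, with Cd68 at -0.24 and Cd3e at 0.00. Of the 7, 3 had means under the array medians. The part of the fibroblast and melanocyte differences in the fall of the Sprr2 genes was not tested.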

How the data were processed

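RNA of 8 keratinocyte cultures, biotin-labelled per the labels, was read on one-colour oligonucleotide arrays. The authors' deposited table gives log2 signals for 11373 probe sets. How these were summarised and normalized is not given in the sources used here. The number of arrays limits the precision. Probe sets were named through the platform annotation (9374 with 1 symbol, 479 with several, 1520 with none). A gene was represented by its probe set with the highest mean, giving 9294 genes, of which 9201 matched the GRCm38.p6 gene table, used for gene order. Tests used limma 3.58.1 (functions lmFit and eBayes; R 4.3.3) over all genes, with Benjamini-Hochberg adjustment, and "fell" or "rose" means an adjusted p under 0.05. Exact permutation tests used scipy 1.17.1. The limma fit, and not the permutation tests, was tested on simulated data, with noise drawn independently for each gene.

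Genes named are all Sprr genes, the 3 nearest profiles of Sprr2d and of Sprr2f, and up to 6 called genes with the largest change in each list. Named as well are the 2 members of each marker list with the highest wild-type means, and the measured neighbours of the cluster. Flg, Tgm1, Krt1, Krt10, Grhl3, Elf3 and Nfe2l2 were named in any case. Col17a1, the only called keratinocyte marker, and Postn were named after their values were seen. Lor, Ivl, Tgm3, Klf4, Cebpb, Fosl1 and Nfkbiz were not analysed here, so the knockout was not checked from these values. The members and lists were chosen with earlier results of these data known. P-values measure the spread between cultures the labels call biological replicates. Alternatives were another scaling, filters on low signals, other use of probe sets, other variance models, array weights, a replicate block and leaving out arrays.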

Additional observations from a re-analysis of the deposited data

Results flagged for a closer look

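Among the 18 groups of 4 arrays examined for the 9 Sprr genes, 1 held an array far from the others. Wild-type replicate 1 of Sprr2h, at 12.43, lay below the other wild-type arrays at 12.61 to 12.64, and its gap to the nearest was 0.8294 of the range of the group, just past Dixon's critical value for 4 samples. Chance alone flags about 1 in 20 groups. Without this array the log2 fold change of Sprr2h was -0.60 in place of -0.55.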

How the results depend on the processing

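The direction of all 9 Sprr changes held under each alternative run, and Sprr2d, Sprr2f, Sprr2h, Sprr2i and Sprr2j-ps passed in each of them. Sprr2k lost its call with arrays centred on their medians (-0.25) and without both arrays numbered 1 (-0.26). It was called in only 3 of the 8 fits that left out 1 array, where it ranged from -0.31 to -0.22. Sprr3 gained a call once genes with a mean log2 signal below 5 were removed and in the exact permutation test (-0.28), and also without knockout replicate 4 (-0.33). It ranged from -0.33 to -0.20 with single arrays left out. Sprr1b and Sprr1a gained one with an intensity trend (-0.20 and -0.12). With single arrays left out, 598 to 687 genes were called in all in place of 827, 5 to 7 Sprr genes were called lower and none higher, and 526 genes were called without both arrays numbered 1. Of 108 alternative counts over the fixed lists, 9 moved by over 1.5 times or went from 1 to 0, the latter for the envelope partners that rose, Padi1 alone.

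The replicate numbers are shared between the groups, and whether same-numbered cultures were prepared together is not stated. The deviations of same-numbered arrays from their group means correlated at 0.09, 0.00, 0.03 and -0.05 over genes. Those of differently numbered arrays correlated at -0.10 to 0.11. A correlation over all genes cannot decide the pairing, because it can miss a likeness limited to some genes. Replicate 1 was low in both groups for most Sprr members. With the replicate number as a block, 659 genes were called, 6 Sprr genes remained lower, and Sprr2k had -0.28 (limma adjusted p = 0.0329). Without detection calls, low signals cannot be separated from background, which limits Sprr3 and Sprr2f in the knockout.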
